A study of Bos taurus with 12 samples.

Results

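The eIF4 translation initiation factors were followed on the arrays through the probes of 8 genes: EIF4B, EIF4H, EIF4A1, EIF4A2, EIF4G1, EIF4G2, EIF4E and EIF4EBP1. The genes were chosen by the low signal of the EIF4B probe in treated muscle, and the other 7 genes were set beside it as its partners. A probe was taken as a member where its gene name, gene number, accession or description led to one of these symbols. That gave 10 probes, each printed as 2 spots (20 spots in all), of the 21475 probes on the array other than controls, which carry 19757 gene names. All 10 were well above background on at least 4 arrays and were among the 14703 probes tested.

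Muscle came from the biceps brachii of male cattle aged 18 to 20 months. The combination group received clenbuterol, a beta-adrenergic agonist, in feed over 28 days. Its dose was 2 mg a head at first, 4 mg in the following week and 6 mg in the remaining weeks, and 0.66 mg of dexamethasone a head was added over 21 days. The dexamethasone group received this synthetic glucocorticoid alone, at 0.75 mg a head over 42 days, and the control group was untreated. The dexamethasone dose and its length therefore differed between the treated groups as well as the clenbuterol. Of 24 bulls, 8 per group, the 12 with the best RNA were hybridised, 4 per group, so the bulls were not a random draw. Each array was a separate animal and 1 colour, and the labels gave the bulls no numbers that pair them across groups.

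Translation of most messenger RNAs begins when the eIF4F complex binds the cap at their 5′ end. In that complex eIF4E holds the cap, eIF4A is an RNA helicase that opens structure in the leader, and eIF4G is the scaffold that joins them to the ribosome. eIF4B and its relative eIF4H stimulate the helicase. 4E-BP1, the product of EIF4EBP1, keeps eIF4E from eIF4G until the mTOR kinase phosphorylates it, and in skeletal muscle this step is a known control point of protein synthesis. The arrays measured messenger RNA, not protein or phosphorylation.

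Levels are given as log2 of the processed signal relative to the 75th percentile of the same array, and differences between groups are on the same log2 scale. No probe's level was compared with another probe's. On each array 53.2% to 68.7% of the spots were well above background. Arrays of a group correlated at 0.952 to 0.984 over the tested probes, and arrays of different groups at 0.957 to 0.977. The 7 arrays of scan day 2, which were 3 combination, 3 dexamethasone and 1 control arrays, had negative controls of 96.0 to 123 scanner units, against 58.6 to 72.3 on the 5 arrays of other days, which were 1 combination, 1 dexamethasone and 3 control arrays. Of 12 genes marking skeletal muscle fibres, 10 had a probe, and these were well above background throughout, with a mean log2 level of 6.54 to 7.50 per array.

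EIF4B was low in both treated groups. The differences of its partner genes from control lay between -0.23 and 0.27 in combination bulls and between -0.28 and 0.30 in dexamethasone bulls. A dim probe that leads to the eIF4E paralogue EIF4E1B gave 0.83 and 0.38. None of the 9 probes other than EIF4B passed the test in any comparison. Every array's value for each probe is shown in the plot of levels by array.

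**Figure D1:**
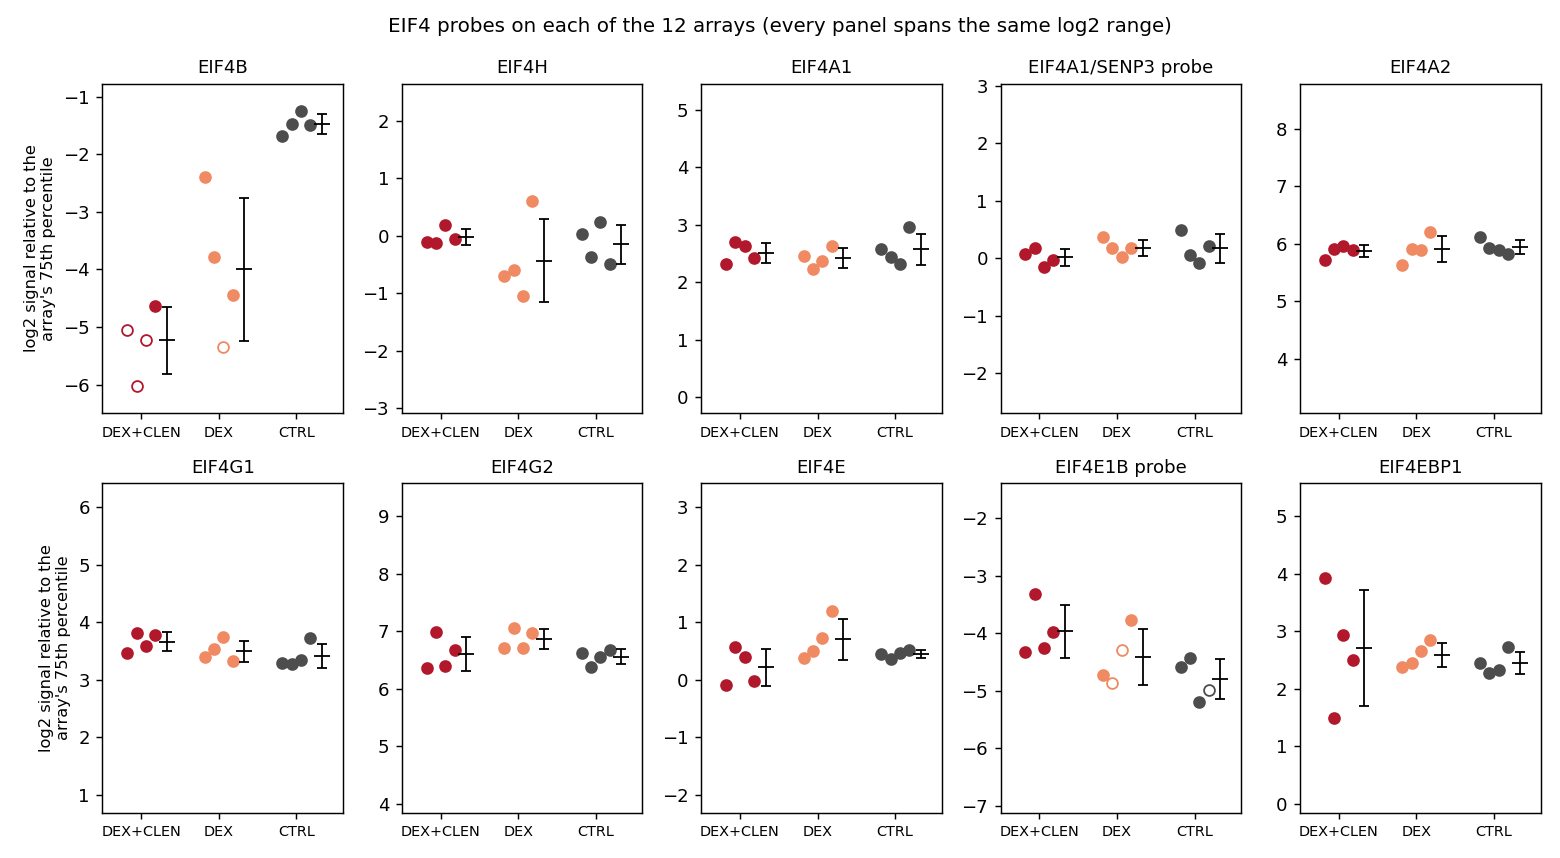
Log2 signal relative to the array's 75th percentile (y axis) of the 10 eIF4 probes, in combination (DEX+CLEN), dexamethasone (DEX) and control (CTRL) bulls. Each point is 1 array, open where the probe was not well above background, and the bar shows the mean and SD of 4 arrays. EIF4B averaged -5.23 in combination, -4.00 in dexamethasone and -1.47 in control bulls.

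In combination bulls the EIF4B probe read -5.05, -6.02, -5.22 and -4.63. In dexamethasone bulls it read -2.40, -3.79, -5.36 and -4.44, and in control bulls -1.68, -1.47, -1.25 and -1.49. Every treated array lay below every control array, while the 2 treated groups overlapped. The highest treated value, in dexamethasone replicate 1, was the nearest to the control arrays.

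By the processed signal, EIF4B was 13.5-fold lower in combination than in control bulls (log2 difference -3.76 ± 0.50 SE, n = 4 per group), with 3 of the 4 combination arrays not well above background. It was 5.75-fold lower in dexamethasone than in control bulls (log2 difference -2.52 ± 0.50), with 1 of the 4 dexamethasone arrays not well above background. The log2 difference of combination from dexamethasone bulls was -1.23 ± 0.50, between groups that both held such arrays, and no fold is read from it. The first of these values brought the gene into view and the others share its arrays, so all 3 are descriptions without a test. Their SE of 0.50 pools the spread of all 3 groups. With only the compared groups it was 0.28, 0.52 and 0.57, in the order given. In an alternative background correction (normexp with an offset of 50), which lifts dim spots, EIF4B was 3.75-fold lower in combination and 2.63-fold lower in dexamethasone than in control bulls, and the log2 difference between the treated groups was -0.51. Without dexamethasone replicate 1, the log2 difference of combination from dexamethasone bulls was -0.70 and that of dexamethasone from control bulls was -3.06.

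The size of these differences rests on dim spots and is uncertain. The probe was well above background on 1 of 4 combination arrays, on 3 of 4 dexamethasone arrays and on all 4 control arrays. Before any background subtraction its spots had a mean brightness of 90.8 to 155 scanner units in combination bulls, 102 to 361 in dexamethasone bulls and 289 to 489 in control bulls. After the scanner software's subtraction the signals of these spots were 14.8 to 37.2 in combination, 19.7 to 227 in dexamethasone and 247 to 411 in control bulls. The paired spots differed by up to 0.89 on the log2 scale on the dim arrays and by at most 0.052 on the control arrays. EIF4B RNA in combination bulls thus lay close to the limit of what these arrays could measure.

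**Figure D2:**
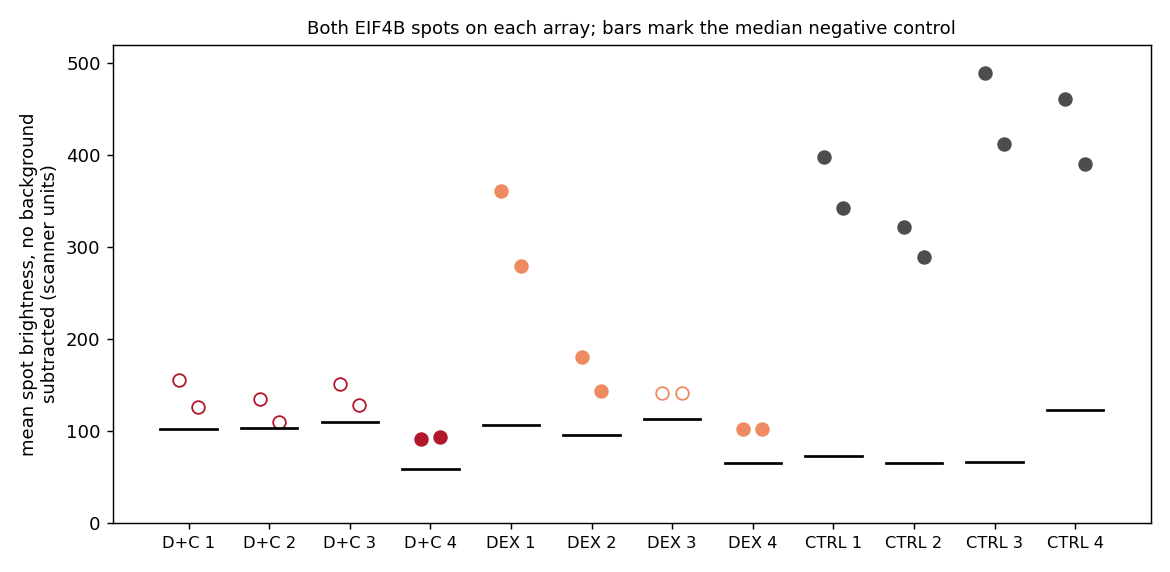
Mean brightness of both EIF4B spots on each array before background subtraction, in scanner units (y axis), with the combination (D+C), dexamethasone (DEX) and control (CTRL) arrays along the x axis. Filled circles are spots well above background, open circles are not, and each black bar is the median negative control of that array. Control spots run from 289 to 489, and combination spots from 90.8 to 155.

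Scan day moved with group, since 3 of the 4 control arrays were scanned apart from most treated arrays. Within scan day 2 the log2 difference of EIF4B was -3.94 between the 3 combination arrays and the 1 control array, and on the other days it was -3.16 between 1 combination and 3 control arrays. The same values for dexamethasone against control were -2.36 and -2.97. Between the treated groups they were -1.58 on scan day 2 (3 against 3) and -0.19 on the other days (1 against 1).

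The dexamethasone bulls varied widely. Their SD of 1.24 for EIF4B was reached by 2.32% of the tested probes in that group, where the median SD was 0.369. The combination bulls had an SD of 0.58, reached by 16.3% of probes, and the control bulls 0.18, reached by 77.5%. Summed signals of markers of other cell types also differed between the groups. The 8 fibroblast genes, all with a probe above background, had a summed scaled signal of 26.9 to 52.4 in combination, 13.7 to 35.7 in dexamethasone and 43.9 to 59.4 in control bulls. The 7 leukocyte genes with a probe, of 8, had sums of 1.34 to 1.93 in combination, 0.995 to 3.09 in dexamethasone and 2.10 to 2.74 in control bulls. The 6 endothelial genes, all with a probe, had sums of 4.70 to 5.57 in combination, 3.51 to 6.08 in dexamethasone and 3.25 to 4.44 in control bulls. Their probes did not move together. Differences from control were above 0 for 5 of 6 in combination and 4 of 6 in dexamethasone bulls. VWF had the largest (0.92 and 0.75), and PECAM1 was at -0.46 in dexamethasone bulls. In the fibroblast and leukocyte lists dexamethasone replicate 1 had the highest mean log2 level of its group (-0.29 and -2.50), as it did for EIF4B. In the muscle fibre, adipocyte and blood lists it had the lowest of its group, and in the endothelial list neither. Between the treated groups all 11 fibroblast probes and 4 of 7 leukocyte probes were higher in combination bulls, where EIF4B was lower. The part of these cells in the EIF4B values was not tested, and in whole muscle fewer cells of a type and less RNA per cell cannot be told apart. Of the blood markers, ALAS2 and SLC4A1 were not well above background on any array, and neither was LEP among the adipocyte markers.

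The other factor that stimulates the helicase, EIF4H, carried the array's older name WBSCR1. Its probe read -0.11, -0.12, 0.19 and -0.05 in combination bulls, -0.70, -0.59, -1.05 and 0.61 in dexamethasone bulls and 0.02, -0.37, 0.23 and -0.49 in control bulls. The groups overlapped in all 3 comparisons, and 3 of the 4 dexamethasone arrays were below all others. The difference from control was 0.13 ± 0.31 (SE) in combination bulls (95% interval -0.54 to 0.80, limma adjusted p = 0.896). In dexamethasone bulls it was -0.28 ± 0.31 (interval -0.95 to 0.39, limma adjusted p = 0.774). The dexamethasone value moved with single arrays, being -0.63 without dexamethasone replicate 4 and -0.07 without dexamethasone replicate 3. It was -0.28 within scan day 2 and 0.64 on the other days.

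The helicase genes had differences from control between -0.16 and 0.01. EIF4A2, one of the paralogous genes for eIF4A, read 5.73, 5.91, 5.96 and 5.90 in combination bulls, 5.64, 5.91, 5.89 and 6.21 in dexamethasone bulls and 6.12, 5.93, 5.90 and 5.83 in control bulls. Its difference from control was -0.07 ± 0.15 in combination bulls (interval -0.40 to 0.26, limma adjusted p = 0.887) and -0.03 ± 0.15 in dexamethasone bulls (interval -0.36 to 0.30, limma adjusted p = 0.956). The groups overlapped throughout.

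EIF4A1 had 2 probes. The one described as EIF4A1 read 2.32, 2.69, 2.63 and 2.42 in combination bulls, 2.46, 2.23, 2.38 and 2.64 in dexamethasone bulls and 2.58, 2.44, 2.33 and 2.96 in control bulls. It differed from control by -0.06 ± 0.17 in combination bulls (interval -0.43 to 0.32, limma adjusted p = 0.919) and by -0.15 ± 0.17 in dexamethasone bulls (interval -0.52 to 0.23, limma adjusted p = 0.787). With a block per scan day these were -0.41 and -0.60. Each then rested on 3 treated arrays and 1 control array, replicate 4, whose 2.96 was the highest of all arrays. The other probe carries the EIF4A1 name but is described as SENP3, a SUMO protease whose gene lies next to EIF4A1 in RefSeq, so its target is uncertain. It differed from control by -0.16 in combination and 0.01 in dexamethasone bulls, and its groups overlapped.

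Both scaffold genes were measured brightly. EIF4G1, the main scaffold, read 3.46, 3.82, 3.59 and 3.78 in combination bulls, 3.39, 3.54, 3.73 and 3.32 in dexamethasone bulls and 3.29, 3.28, 3.34 and 3.72 in control bulls. Control replicates 1, 2 and 3 lay at the low end and replicate 4 among the treated arrays. The difference was 0.25 ± 0.16 in combination bulls (interval -0.10 to 0.61, limma adjusted p = 0.554) and 0.09 ± 0.16 in dexamethasone bulls (interval -0.27 to 0.44, limma adjusted p = 0.886). For combination against control it was -0.10 within scan day 2 and 0.48 on the other days.

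EIF4G2 encodes a scaffold without the eIF4E-binding region that serves cap-independent initiation. Its probe read 6.36, 6.98, 6.39 and 6.68 in combination bulls, 6.72, 7.06, 6.71 and 6.98 in dexamethasone bulls and 6.62, 6.38, 6.56 and 6.68 in control bulls. All 4 dexamethasone arrays were above all 4 control arrays, by 0.30 ± 0.17 on average (interval -0.07 to 0.68), and this did not pass (limma adjusted p = 0.512). In combination bulls the difference from control was 0.04 ± 0.17 (interval -0.33 to 0.42, limma adjusted p = 0.941).

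The cap-binding factor EIF4E read -0.09, 0.58, 0.41 and -0.01 in combination bulls, 0.39, 0.51, 0.73 and 1.20 in dexamethasone bulls and 0.44, 0.36, 0.47 and 0.52 in control bulls. Control arrays were close together, with an SD of 0.068, and 2 combination arrays lay below all of them. The difference from control was -0.23 ± 0.21 in combination bulls (interval -0.68 to 0.22, limma adjusted p = 0.683) and 0.26 ± 0.21 in dexamethasone bulls (interval -0.19 to 0.71, limma adjusted p = 0.680). Combination bulls were 0.49 ± 0.21 below dexamethasone bulls, and this did not pass either (difference -0.49, interval -0.94 to -0.04, limma adjusted p = 0.415).

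A further probe is described as similar to eIF4E, but its gene number leads to the paralogue EIF4E1B, so it may not read EIF4E. It was dim, being well above background on 4 combination, 2 dexamethasone and 3 control arrays, and its paired spots differed by up to 2.21 on the log2 scale. It read -4.32, -3.32, -4.25 and -3.97 in combination bulls, -4.72, -4.86, -4.29 and -3.77 in dexamethasone bulls and -4.58, -4.42, -5.19 and -4.98 in control bulls. Every combination array was above every control array. The difference of 0.83 ± 0.29 (interval 0.20 to 1.46) did not pass (limma adjusted p = 0.322).

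EIF4EBP1, the repressor of eIF4E, read 3.92, 1.49, 2.94 and 2.50 in combination bulls, 2.39, 2.45, 2.65 and 2.86 in dexamethasone bulls and 2.45, 2.28, 2.34 and 2.73 in control bulls. The combination arrays held both the highest and the lowest value of all 12. Their SD of 1.01 was reached by 3.84% of the tested probes in that group, against SDs of 0.21 in dexamethasone and 0.20 in control bulls. The difference from control was 0.27 ± 0.39 in combination bulls (interval -0.57 to 1.11, limma adjusted p = 0.817) and 0.14 ± 0.39 in dexamethasone bulls (interval -0.70 to 0.98, limma adjusted p = 0.927). Each SE pools the spread of all 3 groups, so the combination arrays also widen the dexamethasone interval. With each array left out in turn, the combination value ran from -0.14 to 0.67.

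**Figure D3:**
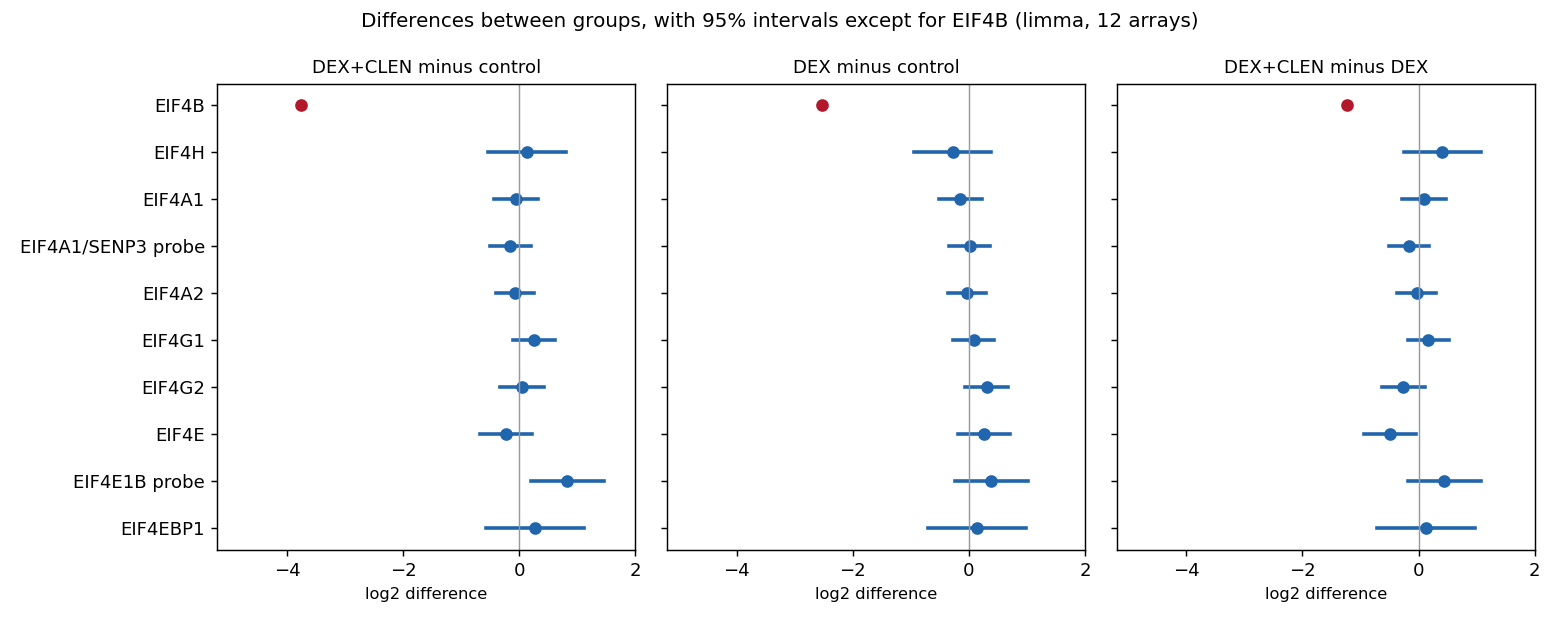
Log2 differences between groups (x axis) for the 10 eIF4 probes, in 3 panels: combination minus control, dexamethasone minus control, and combination minus dexamethasone. Points are limma estimates over 12 arrays and lines are 95% intervals, drawn for all probes but EIF4B. EIF4B lies at -3.76, -2.52 and -1.23, and the other points lie between -0.49 and 0.83.

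Counted together, 0 of the 9 partner probes were called for combination against control, where limma called 0.0272% of all tested probes. For dexamethasone against control it called 0 of 9, against 0.619% of all probes, and for combination against dexamethasone 0 of 9, against 0.0136%. At an unadjusted limma p under 0.05 the counts were 1, 0 and 1 of 9, where the shares of all probes were 11.9%, 12.3% and 10.9%. With limma's array weights the called counts were also 0. Groups did not overlap for 1 of the 9 in combination against control, for 1 in dexamethasone against control and for 0 in combination against dexamethasone, where 8.06%, 6.33% and 5.26% of all tested probes had no overlap. Without the EIF4E1B probe, the counts for combination against control were 0 of 8 at an unadjusted p under 0.05 and 0 of 8 without overlap, and the median difference was -0.007. The median difference over the 9 probes was 0.04 for combination against control, 0.09 for dexamethasone against control and 0.09 for combination against dexamethasone, beside medians of 0.03, 0.03 and 0.02 over all tested probes. Between the treated groups the 9 differences lay between -0.49 and 0.44. The 5th and 95th percentiles over all tested probes were -0.61 and 0.72 for combination against control and -0.82 and 0.64 for dexamethasone against control.

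The wider translation machinery was read from 5 lists: other eIF4-type factors, partners and regulators of the cap complex, the mTOR and S6 kinase axis, the remaining initiation factors from eIF1 to eIF6, and the eIF2 kinases with the elongation factors. Together they held 90 tested probes of 76 genes. Limma called 0 of the 90 in each of the 3 comparisons, with 7, 10 and 5 at an unadjusted p under 0.05 for combination against control, dexamethasone against control and combination against dexamethasone. These were 7.78%, 11.1% and 5.56% of the 90 probes, beside 11.9%, 12.3% and 10.9% of all tested probes. The lists were uneven. The cap-complex list held 3, 4 and 3 of them among 18 probes, and the mTOR and S6 kinase list 4, 5 and 1 among 22. These shares were above those of all probes except for the last, 1 of 22. Whether a list differed from all probes was not tested. The median differences over the 90 probes were 0.007, 0.02 and -0.05 in the same order, close to those of all probes. With array weights, 2 probes were called for dexamethasone against control and 0 in the other comparisons. For each list the 2 probes with the smallest unadjusted p over the 3 comparisons are named here. Probes picked this way tend to have groups that do not overlap. Of all tested probes, 8.06%, 6.33% and 5.26% had no overlap in the 3 comparisons, in the same order.

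Of the other eIF4-type factors, 5 of 7 genes were tested with 1 probe each, and 0 reached an unadjusted p under 0.05 in any comparison. EIF4A3, the helicase of the exon junction complex, differed from control by -0.12 ± 0.15 in combination bulls (limma adjusted p = 0.787). EIF4EBP2, a further 4E-BP, differed by 0.13 ± 0.21 (limma adjusted p = 0.834). Their differences in dexamethasone bulls were -0.05 and 0.20.

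The cap-complex list had 14 of 16 genes tested. MKNK2 encodes MNK2, a kinase that phosphorylates eIF4E on the eIF4G scaffold. It read 4.01, 4.28, 4.07 and 4.84 in combination bulls, 3.92, 3.84, 3.75 and 3.67 in dexamethasone bulls and 3.33, 3.57, 3.65 and 3.62 in control bulls. No 2 groups overlapped, with combination bulls on top. Its difference from control of 0.76 ± 0.19 in combination bulls did not pass (limma adjusted p = 0.190), nor did that of 0.25 ± 0.19 in dexamethasone bulls (limma adjusted p = 0.644).

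CYFIP2, a paralogue of the eIF4E-binding protein CYFIP1, had a dim probe at -3.69, -3.14, -3.47 and -2.65 in combination bulls, -3.68, -4.12, -4.57 and -4.38 in dexamethasone bulls and -3.37, -3.29, -2.73 and -3.15 in control bulls. All dexamethasone arrays were below all control arrays. The difference of -1.05 ± 0.26 did not pass (limma adjusted p = 0.0996), but it did with array weights (adjusted p = 0.0340) and without dexamethasone replicate 1. The other CYFIP2 probe gave -0.51. MKNK1, the MNK2 paralogue, was the other probe called with array weights, at 0.81 in dexamethasone against control bulls (adjusted p = 0.0367), and it is named because of that count. Without the weights its difference was 0.66 ± 0.18 and did not pass (limma adjusted p = 0.154).

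On the mTOR and S6 kinase axis, 19 of 21 genes were tested, MTOR itself not among them. RPS6KB1 encodes S6K1, which phosphorylates eIF4B and ribosomal protein S6. It read 0.20, 0.35, 0.42 and 0.54 in combination bulls, 0.48, 0.60, 0.70 and 1.03 in dexamethasone bulls and 1.07, 1.03, 0.88 and 0.91 in control bulls. Every combination array lay below every control array. The difference of -0.60 ± 0.15 did not pass (limma adjusted p = 0.204), and in dexamethasone bulls it was -0.27 ± 0.15 (limma adjusted p = 0.513). The other RPS6KB1 probe, well above background on all 12 arrays, gave -0.05 in combination and 0.02 in dexamethasone bulls. Its treated groups each overlapped the control group, so the lower level was seen with only the first probe.

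RPS6KA3 encodes RSK2, a kinase of the ERK pathway, whose family also phosphorylates eIF4B. It read 2.40, 2.04, 2.66 and 2.50 in combination bulls, 2.04, 2.65, 2.18 and 3.02 in dexamethasone bulls and 3.59, 2.77, 3.20 and 3.33 in control bulls. Combination and control arrays did not overlap, while dexamethasone and control arrays did. The differences from control were -0.82 ± 0.25 in combination bulls (limma adjusted p = 0.264) and -0.75 ± 0.25 in dexamethasone bulls (limma adjusted p = 0.233). The gene's other probe gave -0.80 and -0.81.

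Among the initiation factors outside the eIF4 group, 27 of 30 genes were tested through 31 probes, and 0, 1 and 0 of these reached an unadjusted p under 0.05 for combination against control, dexamethasone against control and combination against dexamethasone. EIF5A2, a paralogue of the hypusine-bearing factor eIF5A, was well above background on 1 combination, 0 dexamethasone and 3 control arrays, so its difference from control of -0.997 ± 0.46 in dexamethasone bulls compares dim spots (limma adjusted p = 0.405). EIF2A, which can bring initiator tRNA to the ribosome, differed from control by -0.36 ± 0.21 in combination bulls (limma adjusted p = 0.514).

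For elongation, EEF1A1, which delivers aminoacyl-tRNA to the ribosome, read 2.98, 3.002, 3.39 and 3.36 in combination bulls, 3.41, 2.06, 2.07 and 2.21 in dexamethasone bulls and 3.28, 2.91, 3.18 and 2.80 in control bulls. Dexamethasone replicate 1 was the highest of all arrays and the other dexamethasone arrays were the lowest. Combination bulls were 0.75 ± 0.28 above dexamethasone bulls (limma adjusted p = 0.359), and without dexamethasone replicate 1 the difference passed (1.07, adjusted p = 0.0366). EEF1A1 belongs to a family with many near-identical copies, so its probe may read more than 1 gene. EIF2AK3, the endoplasmic reticulum stress kinase PERK, differed from control by 0.37 ± 0.26 in combination bulls (limma adjusted p = 0.596) and by 0.53 ± 0.26 in dexamethasone bulls (limma adjusted p = 0.442). This probe was dim, being well above background on 4 combination, 3 dexamethasone and 3 control arrays. The gene's brighter probe gave -0.07 in combination and 0.34 in dexamethasone bulls.

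The probes most like EIF4B over the 12 arrays were found by Pearson's r of the log2 levels. Only tested probes given a gene symbol were ranked, and they share arrays, slides and scan days. Probes that kept the file's name or a LOC number were not ranked. These r use the EIF4B levels that chose the genes, 4 of 12 of them not well above background, so they follow the same group differences. Highest were B3GNT8 (r = 0.92), IRAK4 (0.88), PDGFRA, STK17A and NUDT18 (0.87 each). IRAK4, a kinase of Toll-like receptor signalling, averaged -2.33 in combination, -2.19 in dexamethasone and -1.75 in control bulls. PDGFRA, a growth factor receptor on the fibroblast marker list, averaged -1.13 in combination, -1.15 in dexamethasone and 0.03 in control bulls. The B3GNT8 probe was dim, being well above background on 0 combination, 2 dexamethasone and 3 control arrays.

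Most opposite to EIF4B were RAD9A (r = -0.92), PGC and LRRC32 (-0.91 each), SMYD1 (-0.88) and HSPB6 (-0.87). The LRRC32 probe was dim, being well above background on 3 combination, 1 dexamethasone and 2 control arrays. SMYD1, a histone methyltransferase of striated muscle, averaged 0.42 in combination, 0.13 in dexamethasone and -0.26 in control bulls. HSPB6, a small heat shock protein of muscle, averaged 4.24 in combination, 4.10 in dexamethasone and 3.42 in control bulls. Within the eIF4 genes the r with EIF4B was 0.08 for the EIF4A1 probe described as such, 0.34 for the EIF4A1 and SENP3 probe, -0.04 for EIF4A2, -0.04 for EIF4H, -0.03 for EIF4E, -0.14 for EIF4EBP1, -0.25 for EIF4G2, -0.58 for EIF4G1 and -0.76 for the EIF4E1B probe.

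**Figure D4:**
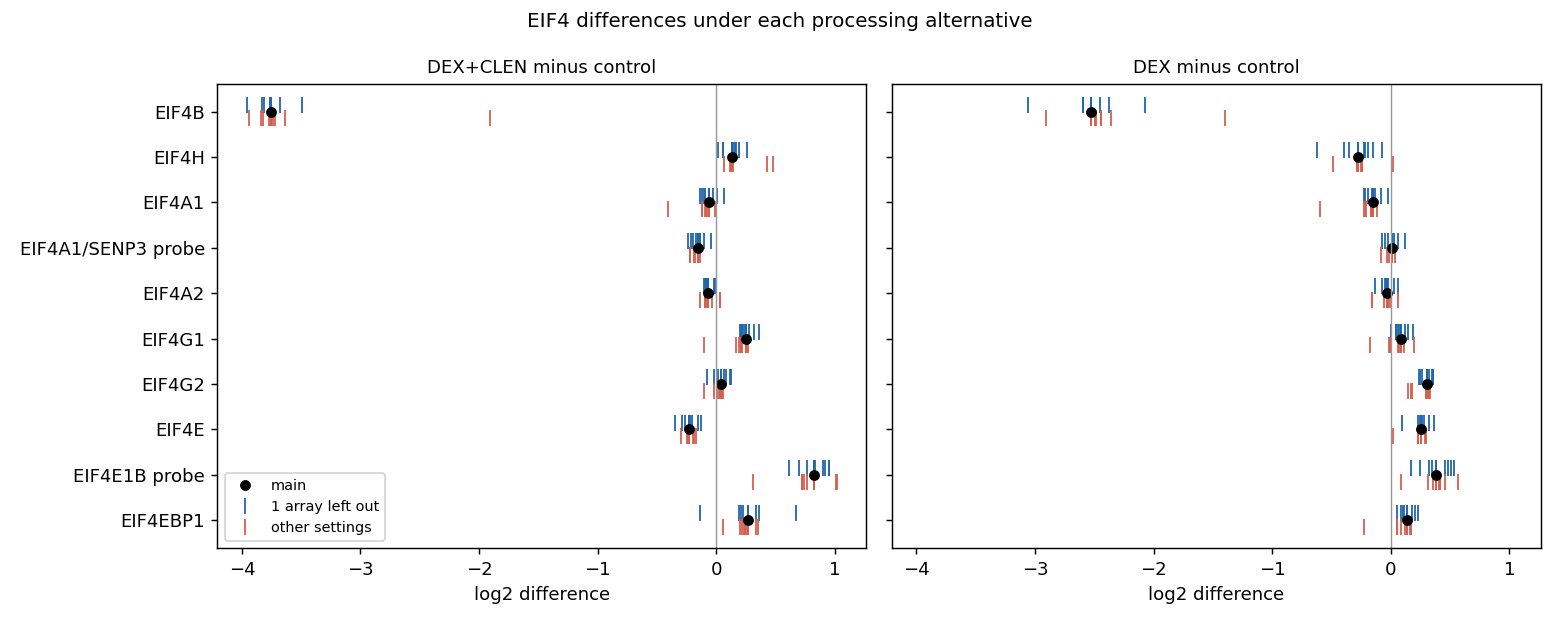
Log2 differences from control (x axis) of the 10 eIF4 probes, for combination bulls on the left and dexamethasone bulls on the right. Black points are the reported values, blue ticks leave out 1 array each, and red ticks are other processing settings. EIF4B lies below every partner under every setting drawn, its smallest combination value being -1.91 with normexp. It was chosen for its fall on these same arrays, so its place is a description without a test.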

How the data were processed

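Per the labels' protocols, total RNA was extracted with Trizol and RNeasy columns and labelled with Cy3. The files the authors deposited give spot intensity from Agilent Feature Extraction 9.5.1.1, per the file headers. The value table the authors deposited also holds intensity and orders the spots of an array as the scanner signal does (Spearman at least 0.999996), with array medians of 137.25 to 181.167. How it was made is not stated in the sources used here, and it served as an alternative. Members and gene lists were chosen with earlier results of these data known.

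From the scanner files, log2 of the processed signal minus the array's 75th percentile was computed, software-marked outlier spots (1 to 7 per array) were dropped, and the spots of a probe were averaged. Saturated spots (3 to 10 per array) were kept. The test took the 14703 probes that 4 or more of the 12 arrays showed well above background. Limma 3.58.1 in R 4.3.3 (lmFit on 3 group means, eBayes) gave two-sided p-values, adjusted by Benjamini-Hochberg over all tested probes of a comparison, with a probe called under 0.05. EIF4B was given no test. The SE of a comparison pools the spread of all 3 groups, including the group not compared. The limma step was tested on simulated data with independent noise and no slide or scan day effects. There, for combination against control, it called 44.9% of added log2 changes of 1 and 87.8% of those of 2. The number of arrays limits the precision.

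Current names came from RefSeq's genes of ARS-UCD2.0, which served for names and neighbouring genes only, since the array names no build. Of the probes, 9716 were named by gene number, 3398 by accession, 719 by symbol and 2748 by description, and 4894 kept the file's name. Named genes of the translation lists were every called probe, or else the 2 with the smallest unadjusted p over the comparisons. The 5 highest and 5 lowest r with EIF4B were named among tested probes given a gene symbol, so LOC numbers and kept file names were not ranked. Probe sequences were not used here. The label of dexamethasone replicate 4 names another slide than its header, which was followed. Alternatives covered background correction, scaling, the value table, the filter, slide, scan day, array weights and leaving out each array.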

Additional observations from a re-analysis of the deposited data

Results flagged for a closer look

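The control arrays for EIF4G1 held 1 value apart from the others. Control replicate 4 read 3.72 beside 3.29, 3.28 and 3.34, a gap of 0.863 of the group's range, past the 95% critical value of Dixon's test for 4 values. It was the only such case in 30 groups of 4 arrays (10 probes in 3 groups), where chance gives about 5% of groups. Control replicate 4 was the single control array of scan day 2. The part of scan day in this value was not tested.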

How the results depend on the processing

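No paired analysis was possible because the labels give no numbers that pair bulls across groups. The replicate numbers used here follow sample order and pair nothing. For combination against control, 4 probes were called, and the count was 8 with normexp, 0 with no filter, 0 with probes above background on all 12 arrays, 2 with only the compared groups, 0 with slide as a random block, 0 with scan day 2 as a block, 2 with a block per scan day and 86 with array weights. For dexamethasone against control, 91 were called, and the count was 27 with no filter, 56 with all 12 arrays above background, 15 with scan day 2 as a block, 2 with a block per scan day and 301 with array weights. For combination against dexamethasone, 2 were called, and the count was 1 with normexp, 0 with quantile scaling, 0 with median scaling, 0 with the value table, 0 with no filter, 1 with all 12 arrays above background, 0 with only the compared groups, 0 with slide, 0 with scan day 2, 0 with scan day and 10 with array weights. A block per scan day leaves control replicate 4 as the only control array compared with treated arrays. The causes were not tested. Leaving out 1 array gave 0 to 13, 25 to 276 and 0 to 73 called probes for the 3 comparisons. The highest counts of 276 and 73 came without dexamethasone replicate 1, and the 25 came without control replicate 1.

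None of the 27 values of the partner probes (9 probes in 3 comparisons) was called in any of 642 alternatives, while 13 of them changed sign in at least 1. EIF4B kept its direction throughout, but every setting reuses the arrays whose low signal chose it. Apart from normexp and leaving out an array, its log2 difference from control ran from -3.94 to -3.63 in combination bulls and from -2.91 to -2.36 in dexamethasone bulls. It had no value where all 12 arrays had to be above background. Alternatives for the named translation genes were added after seeing the data. They changed the call for CYFIP2 in 2 settings, for MKNK1 with array weights, and for EEF1A1 without dexamethasone replicate 1, also against control (-0.93, adjusted p = 0.0268). Dim signal limits EIF4B, EIF4E1B, CYFIP2, EIF5A2, EIF2AK3, B3GNT8 and LRRC32.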
